A study of Danio rerio with 2 samples.

Results

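ATF4 targets and amino acid stress genes were described here as a set of 10 zebrafish genes. They were chosen by name from the gene column of the deposited table. The set holds the transcriptional regulator genes atf4b2, ddit3, cebpg and nupr1, and the translation and growth brakes eif4ebp3l and ddit4. It also holds the glutathione-degrading enzyme gene chac1 and the biosynthetic enzyme genes psat1, shmt2 and aldh18a1. All 10 were found, each in 1 row, among 29358 gene symbols. RNA was sequenced from whole larvae of the AB/TL strain at 5 days post fertilization, comparing homozygous lri35 mutants with wild-type larvae of the same clutch. Each genotype was 1 library from 20 pooled larvae, so there are no replicates, and every difference below compares these 2 libraries; genotype, pool and library cannot be told apart. The sample labels write the allele as lir35 and name no affected gene, and a check of the labels against a targeted gene was therefore not made.

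ATF4 is a bZIP transcription factor at the centre of the integrated stress response. Kinases that sense amino acid shortage, unfolded protein in the endoplasmic reticulum, heme shortage or double-stranded RNA phosphorylate the initiation factor eIF2, which slows translation in general while ATF4 mRNA is translated more. ATF4 then raises genes of amino acid synthesis and uptake, tRNA charging and, when stress lasts, cell death. Because ATF4 is controlled largely at translation, the mRNA levels of its targets are commonly read alongside its own mRNA. These roles are known mainly from mammalian cells.

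The deposited values were taken as FPKM, a count of sequenced fragments scaled to transcript length and library size, a unit inferred from the table's layout. The wild-type values summed to 875340 and the mutant values to 874244. Absolute depth is unknown. Low values placed the mutant library at about 1.27 times the depth of the wild type. That figure assumes that such rows mostly hold equal fragment counts in both libraries, which was not tested. Markers of muscle, liver, neurons and retina, and epidermis were present in both libraries, which the labels call whole body. Below 0 on the log2 difference defined below lay 4 of 5 muscle markers (median -0.08), 6 of 8 liver markers (median -0.10), 5 of 6 neuron and retina markers (median -0.14) and 1 of 4 epidermis markers (median 0.27), with 0 of them past 2-fold. Of all genes that averaged 1 FPKM or more, 50.9% lay below 0 and 5.99% were past 2-fold. From 50 FPKM up, these shares were 43.4% and 2.48%. Among the liver markers, fabp10a, a fatty acid binding protein gene, stood at 887.1 and 484.6 FPKM, and the most abundant, apoa2, at 6125 and 7038 FPKM.

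The amino acid stress genes differed little between the libraries. None of the 10 reached a 2-fold difference on the scale log2((mutant FPKM + 1)/(wild-type FPKM + 1)): 0 were higher and 0 were lower. Among the 19112 genes whose mean over both libraries was 1 FPKM or more, a minimum that all 10 passed, the share past 2-fold was 2.87% toward the mutant and 3.12% toward the wild type. By level, the share past 2-fold in either direction was 10.5% between 1 and 5 FPKM, 3.56% between 5 and 20, 1.83% between 20 and 50 and 2.48% from 50 FPKM up. With shares this small, a count of 0 of 10 does not set these genes apart from others at their levels. The log2 differences of the 10 ran from -0.57 for eif4ebp3l to 0.07 for ddit4. At 1.5-fold on the same scale the count was also 0 of 10, against 17.2% of all genes. That share was not split by level. It includes genes between 1 and 5 FPKM, below the level of the 10, where the 2-fold share was highest. The gene eif4ebp3l, 1.49-fold lower, fell just short of 1.5-fold, so the count of 0 at that limit rests on a narrow miss. Of the 10, 9 had the lower value in the mutant library, beside 50.9% of all genes.

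**Figure D1:**
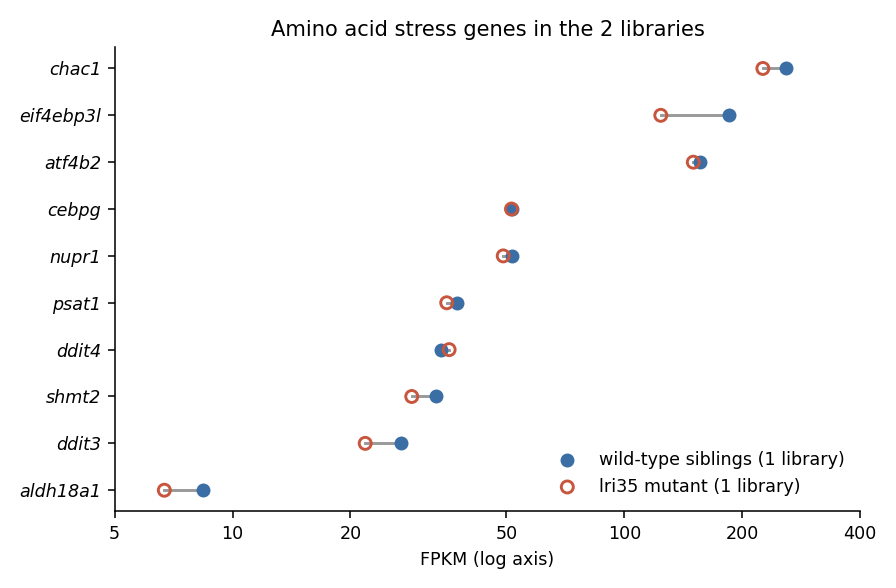
Level of each of the 10 genes in FPKM on a log axis, in the wild-type library (filled blue) and the mutant library (open red), ordered by mean level. The paired points lie close together for every gene, with the widest gap at eif4ebp3l (184.9 against 123.9 FPKM).

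Among the transcription factors, atf4b2, a zebrafish copy of ATF4 now called atf4b, stood at 155.5 FPKM in wild type and 149.9 FPKM in the mutant. The mutant value was 3.59% lower. The row lies on Zv9 chromosome 3 from 24489174 to 24492060. The gene ddit3 encodes CHOP, which in mammals is induced by ATF4 and drives cell death genes under lasting stress. Its level was 26.98 FPKM in wild type and 21.80 FPKM in the mutant, 1.24-fold lower. It lies on chromosome 6 from 58818529 to 58821727.

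The bZIP factor C/EBP gamma, from cebpg, pairs with ATF4 on its target sites. It had nearly the same value in both libraries, 51.80 FPKM in wild type and 51.51 FPKM in the mutant, on chromosome 7 from 39481772 to 39487287. The gene nupr1, now called nupr1b, encodes a small stress-induced nuclear protein. It stood at 51.76 FPKM in wild type and 49.07 FPKM in the mutant, 5.20% lower, on chromosome 3 from 15109868 to 15110752. Of the 4 regulator genes, ddit3 had the largest ratio between the libraries, and the others differed by less than 10%.

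The translational brake eif4ebp3l had the largest difference of the set. Its product belongs to the 4E-BP proteins, which hold the cap-binding factor eIF4E and so lower cap-dependent translation when mTORC1 is off. It stood at 184.9 FPKM in wild type and 123.9 FPKM in the mutant, 1.49-fold lower, on chromosome 14 from 6939193 to 6953894. The authors' deposited table gives it a p of 0.0482 and a q of 0.994. Of the 1653 genes that averaged 50 FPKM or more, 5.44% differed at least as much in either direction. The gene ddit4 encodes REDD1, an inhibitor of mTORC1 induced by stress and low oxygen. It was the only one of the 10 with a higher value in the mutant library, at 34.08 FPKM in wild type and 35.70 FPKM in the mutant, on chromosome 12 from 49633437 to 49635564. The 2 brake genes thus lay on opposite sides of equality.

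The most abundant gene of the set was chac1, which encodes an enzyme that cleaves glutathione and is among the strongest ATF4 and CHOP targets in mammals. It stood at 258.7 FPKM in wild type and 225.7 FPKM in the mutant, 1.15-fold lower, on chromosome 20 from 28296498 to 28299069. By mean level it ranked 403 among the 19112 genes. A log2 difference of its size, -0.20, or a larger one was found in 36.8% of genes at 50 FPKM or more.

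The biosynthetic enzymes were lower in the mutant library by small amounts. The gene psat1, whose enzyme is a transaminase of serine synthesis, stood at 37.39 FPKM in wild type and 35.20 FPKM in the mutant, on chromosome 5 from 72352360 to 72365894. The mitochondrial enzyme from shmt2 turns serine into glycine and passes a carbon unit to folate. Its level was 33.15 FPKM in wild type and 28.66 FPKM in the mutant, 1.16-fold lower, on chromosome 6 from 59094230 to 59150417. The gene aldh18a1 encodes the enzyme that makes the precursor of proline and ornithine from glutamate. It was the least abundant of the set, at 8.41 FPKM in wild type and 6.70 FPKM in the mutant, 1.26-fold lower, on chromosome 12 from 32453032 to 32496034. At its level, between 5 and 20 FPKM, 40.4% of genes differed at least as much.

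Levels within the set spanned 30.8-fold in wild type and 33.7-fold in the mutant, and the order of the genes was almost the same. From the highest level in wild type, the order was chac1, eif4ebp3l, atf4b2, cebpg, nupr1, psat1, ddit4, shmt2, ddit3 and aldh18a1. In the mutant, eif4ebp3l and atf4b2 exchanged places, and so did psat1 and ddit4. FPKM is scaled to transcript length, so levels of different genes can be set side by side only as far as the gene models and read assignment allow. With 1 library per genotype no spread is known, and neighbours in the order cannot be separated. No region of the 10 was shared with another row of the table.

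Summed over the set, FPKM was 842.7 in wild type and 728.1 in the mutant, which is 0.0963% and 0.0833% of all FPKM. Most of that gap came from eif4ebp3l and chac1, with gaps of 61.04 and 33.02 FPKM. The median log2 difference of the 10 genes was -0.14, and that of all 19112 genes was -0.01. In the set 9 of 10 lay below 0, compared with 50.9% of all genes. By level the share was 51.7% between 5 and 20 FPKM, 44.7% between 20 and 50 and 43.4% from 50 FPKM up. Within the set, 5 of 10 differed by less than 10%, and cebpg, at -0.01, changed sign under 1 scaling given below. The 10 genes were chosen with earlier results of these data known, so the count of 9 is not independent of those results. All 10 lay inside the central 95% of differences of genes at their level, which ran from -0.88 to 0.50 at 50 FPKM and above, from -0.66 to 0.67 between 20 and 50 FPKM, and from -0.89 to 0.86 between 5 and 20 FPKM. The authors' deposited table tested all 10 and gave 1 of them, eif4ebp3l, a p under 0.05, against 2.94% of the 14574 rows it tested. Every one of the 10 has a q of 0.994 in the authors' deposited table, which gives 0.124% of its tested rows a q under 0.05.

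**Figure D2:**
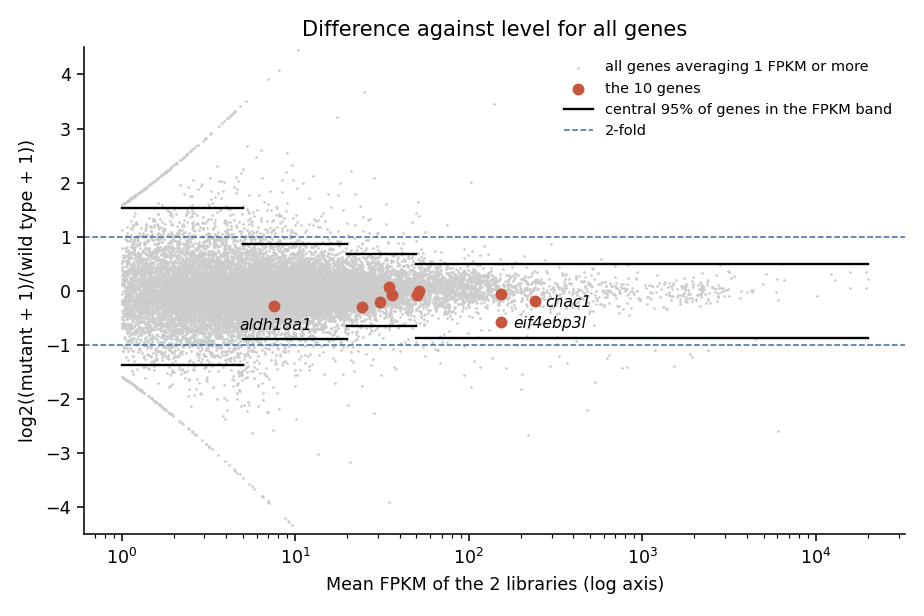
Difference between the libraries, log2((mutant FPKM + 1)/(wild-type FPKM + 1)), against mean FPKM on a log axis, for all genes averaging 1 FPKM or more (grey) and the 10 genes (red); black lines bound the central 95% of genes in each FPKM band, dashed lines mark 2-fold, and 8 genes lie outside the axis. All 10 genes sit between the black lines, and the lowest, eif4ebp3l, is at -0.57.

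Genes of the exocrine pancreas and of red blood cells were lower in the same mutant library. These marker lists were chosen with earlier results of these data known, so their counts are not independent support for a difference. All 10 exocrine markers lay below 0, 9 of them at least 2-fold lower, and their summed level was 9727 FPKM in wild type and 3982 FPKM in the mutant. All 7 red blood cell markers lay below 0, 4 of them at least 2-fold lower, with sums of 1688 and 848 FPKM. The row of alas2, 1 of those 4, has the same region as the exocrine marker ela2l, so the values of both are uncertain. The regions of the exocrine markers ctrb1 and pla2g1b each hold another gene too. Of all 19112 genes, 3.12% were at least 2-fold lower. In a bulk library, fewer cells of a type and less RNA per cell cannot be told apart. The part of these tissues in the levels of the amino acid stress genes was not tested.

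The wider pathway was read through 9 lists that leave out the 10 genes. Of 173 genes written down, 156 were matched by symbol and 153 averaged 1 FPKM or more. Of these 153, 1 was past 2-fold toward the mutant and 1 toward the wild type, 1.31% in all beside 5.99% of all genes. The 5.99% includes the genes between 1 and 5 FPKM, of which 10.5% were past 2-fold. Most of the 153 averaged 5 FPKM or more, where the share by level was 1.83% to 3.56%. A share matched to the levels of the 153 was not computed. The median log2 difference of the 153 was 0.01, with 75 of 153 below 0. The authors' deposited table gives 3 of the 149 pathway genes it tested a p under 0.05, against 2.94% of the 14574 rows it tested. Each of the 3 has a q of 0.994.

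Upstream of ATF4, the eIF2 kinases, eIF2 subunits and the exchange factor eIF2B had a median log2 difference of -0.03 over 15 genes, with 8 below 0 and 0 past 2-fold. The gene eif2s1a, a copy of the alpha subunit that carries the regulatory phosphorylation, stood at 16.81 FPKM in wild type and 31.98 FPKM in the mutant, 1.90-fold higher. The authors' deposited table gives eif2s1a a p of 0.00775 and a q of 0.994. Its more abundant copy eif2s1b, named after its values were seen, stood at 70.72 and 74.39 FPKM, in a region that holds 7 other genes. The gene gcn1l1, whose product activates the amino acid sensor kinase GCN2, had the lowest difference at 12.72 and 9.75 FPKM. The GCN2 gene itself, eif2ak4, named after its values were seen, was listed at 0 in both libraries. Its row lies on the sequence Zv9_NA561 rather than a numbered chromosome. Whether the 0 reflects the gene or the row was not tested.

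The other bZIP factors and the tribbles genes lay mostly on the mutant side of equality. The bZIP and tribbles list had a median log2 difference of 0.16 over 11 genes, with 10 of 11 above 0 and 0 past 2-fold. Below 0 lay 1 of 11, beside 50.9% of all genes and 43.4% to 51.7% by level from 5 FPKM up. The authors' deposited table gives 0 of the 11 a p under 0.05, against 2.94% of all rows it tested. The other copy of ATF4, atf4b1, stood at 132.4 FPKM in wild type and 143.7 FPKM in the mutant, so that the 2 copies differed in opposite directions and by less than 10% each. The C/EBP genes cebpa, cebpb and cebpd, which encode partners that share DNA sites with ATF4, had mutant values 1.43-fold, 1.29-fold and 1.26-fold those of wild type. The pseudokinase gene trib3, an ATF4 target whose product restrains ATF4, stood at 23.60 and 25.64 FPKM. The lowest was atf5a, a close relative of ATF4, at 15.37 and 12.89 FPKM.

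In the serine, glycine and folate list the median log2 difference was -0.02 over 17 genes, 9 of them below 0 and 0 past 2-fold. The enzymes on either side of psat1 in serine synthesis, named after their values were seen, were phgdh at 30.48 and 35.01 FPKM and psph, whose region holds 7 other genes, at 22.45 and 22.15 FPKM. The cytosolic counterpart of shmt2, shmt1, likewise named afterwards, stood at 32.47 FPKM in wild type and 37.20 FPKM in the mutant, higher where shmt2 was lower. The mitochondrial folate enzyme genes mthfd1l and mthfd2 had the highest differences of the list. The first was at 15.44 FPKM (wild type) and 25.63 FPKM (mutant), the second at 10.13 and 15.20 FPKM. The region of mthfd2 holds 9 other genes, so its value is uncertain. The lowest was cbsa, of homocysteine removal, at 30.03 and 22.32 FPKM.

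The proline, asparagine and glutamate list had a median log2 difference of -0.00 over 17 genes, with 9 below 0 and 0 past 2-fold. Asparagine synthetase, asns, a classical ATF4 target, stood at 14.07 FPKM in wild type and 15.30 FPKM in the mutant. An enzyme gene that follows aldh18a1 in proline synthesis, pycr1a, stood at 13.06 and 9.82 FPKM, in a region that holds another gene. The like-named pycr1b, named after its values were seen, stood at 20.98 and 21.08 FPKM, in a region that holds 15 other genes. The related pycrl, likewise named afterwards, was at 3.66 and 3.22 FPKM. The lowest difference of the list was that of gls2, at 11.67 FPKM in wild type and 7.67 FPKM in the mutant. Its region holds 7 other genes, so its value is uncertain. The glutamine synthetase genes glula and glulb, the most abundant of the list, were close to level. The former stood at 350.6 FPKM (wild type) and 351.9 FPKM (mutant), the latter at 280.8 and 263.3 FPKM.

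Amino acid transporters had a median log2 difference of -0.04 over 22 genes, 12 of them below 0 and 0 past 2-fold. The list held wide gaps in both directions. The neutral amino acid transporter gene slc38a4 stood at 54.26 FPKM in wild type and 27.39 FPKM in the mutant, 1.98-fold lower, and slc1a4, which carries serine and alanine, at 13.61 and 23.40 FPKM, 1.72-fold higher. The authors' deposited table gives slc1a4 a p of 0.0189 and slc38a4 a p of 0.104. The heavy chain gene slc3a2b, shared by several exchangers, was nearly level at 184.3 and 176.3 FPKM.

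Cytosolic tRNA synthetases and their partners, which charge tRNAs with amino acids, had a median log2 difference of 0.06 over 22 genes, with 9 below 0 and 0 past 2-fold. The cysteine and serine enzymes had the highest differences, cars at 10.37 and 13.89 FPKM and sars at 60.66 and 76.62 FPKM. The arginine enzyme gene rars had the lowest, at 26.45 and 18.42 FPKM.

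The list of 4E-BPs and mTORC1 brakes had the lowest median of the 9 lists, a log2 difference of -0.18 over 12 genes, with 8 below 0 and 0 past 2-fold. Of all genes, 50.9% lay below 0, and 43.4% to 53.6% by level. The like-named 4E-BP gene eif4ebp3 was also lower in the mutant library, at 83.08 and 61.68 FPKM or 1.35-fold. The other 4E-BP genes were slightly higher there, eif4ebp1 at 77.83 and 85.37 FPKM and eif4ebp2 at 139.5 and 150.0 FPKM. The tuberous sclerosis gene tsc1a, whose product restrains mTORC1, stood at 12.03 and 6.44 FPKM, 1.87-fold lower. The authors' deposited table gives tsc1a a p of 0.0102. The related genes tsc1b and tsc2, named after their values were seen, were also lower in the mutant library. The first stood at 5.56 and 3.63 FPKM, the second at 3.62 and 2.30 FPKM. Between 1 and 5 FPKM, 32.7% of genes differed at least as much as tsc1b and 34.4% at least as much as tsc2. The leucine sensor gene sesn2, an ATF4 target, stood at 9.73 and 11.07 FPKM, and sesn1, whose region holds 3 other genes, at 107.1 and 86.30 FPKM.

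The redox, cell death and secreted list had a median log2 difference of 0.03 over 17 genes, with 8 below 0. Past 2-fold, 1 was higher in the mutant library and 0 lower. The gene past 2-fold was bcl2l11, which encodes the cell death protein Bim, at 2.46 FPKM in wild type and 6.83 FPKM in the mutant. At its low level, between 1 and 5 FPKM, 7.36% of genes differed at least as much. The chac1 relative chac2 stood at 7.11 and 5.26 FPKM. The hormone gene fgf21, an ATF4 target in mammals named after its values were seen, stood at 1.05 FPKM in wild type and was listed at 0 in the mutant, under the minimum mean.

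Genes of folding and stress sensing in the endoplasmic reticulum had a median log2 difference of -0.03 over 20 genes, with 11 below 0. Past 2-fold, 0 were higher in the mutant library and 1 lower. That gene was ern1, which encodes the sensor kinase IRE1, at 8.96 FPKM in wild type and 3.11 FPKM in the mutant, 2.88-fold lower. The authors' deposited table gives ern1 a p of 0.133. The main chaperone gene hspa5 stood at 34.59 and 38.88 FPKM, and xbp1, whose mRNA is the IRE1 substrate, at 118.4 and 129.1 FPKM.

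**Figure D3:**
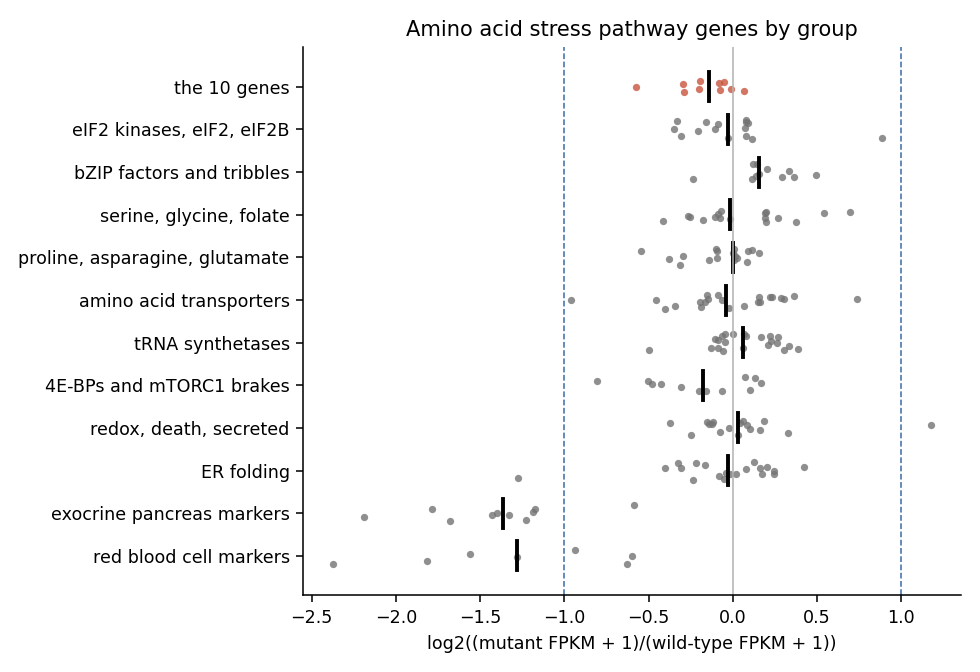
Log2 difference, log2((mutant FPKM + 1)/(wild-type FPKM + 1)), of each gene averaging 1 FPKM or more in the set of 10 (red), the 9 pathway lists and 2 marker lists (grey); vertical bars are medians and dashed lines mark 2-fold. Pathway medians lie between -0.18 and 0.16, while the medians of the exocrine pancreas and red blood cell markers are -1.37 and -1.28. The muscle, liver, neuron and retina, and epidermis markers, with medians from -0.14 to 0.27, are not drawn.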

How the data were processed

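The authors deposited 1 table with 33733 Ensembl gene rows, which holds a value for each library and their own p-values and q-values. CASAVA and Bowtie, with no versions or roles, and the build Zv9 are named in the submitters' processing notes. For the program that made the table, its annotation and its treatment of shared reads, nothing is stated in the labels. Values were read as FPKM from the layout of the deposited table, which resembles a Cuffdiff output. The wild-type and mutant columns were matched by the library names ending in WT and MT. FPKM depends on the gene model and on the assignment of reads that match several genes.

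Rows sharing a symbol were summed. The difference was log2((mutant + 1)/(wild type + 1)), with a pseudocount of 1 FPKM that understates the change of low genes, and a gene was called at 2-fold when its mean was at least 1 FPKM. Folds in the text are plain ratios of FPKM. With 1 library per genotype no test, standard deviation or p-value was computed. The p-values and q-values are those of the authors' deposited table and compare 2 libraries. Relative depth came from 350 rows that averaged no more than 0.3 FPKM and were 0 in neither library, as the most filled bin of 0.1 of their log2 ratio. Absolute depth is unknown, so no counting interval is given.

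The 10 genes, the pathway lists and the marker lists of exocrine pancreas and red blood cells were chosen with earlier results of these data known. From each pathway list the rule names every gene past 2-fold and, with a mean of at least 5 FPKM, the 2 highest differences, the 2 lowest and the 2 most abundant, of which the text prints most; other genes are said to be named afterwards. With only 2 libraries, no likeness of pattern between genes was measured. Of the 10 IDs, 8 have a current name in the gene name table used. The procedure was tested on simulated data with planted shifts large enough to pass 2-fold by arithmetic. That test checks the code and says nothing of the error of calls between these 2 libraries. Alternatives covered the pseudocount, the filter, the scaling, the rows of a symbol and the fold. Python 3.11.15, pandas 2.3.3, numpy 2.4.6 and matplotlib 3.10.9 were used.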

Additional observations from a re-analysis of the deposited data

How the results depend on the processing

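Under the 8 alternatives listed for the pseudocount, filter, scaling, rows of a symbol and fold, the number of amino acid stress genes called was 0 in each direction, and their median log2 difference ran from -0.15 to -0.11. The 2 filters, the highest row and the fold cannot alter a single value here, since all 10 genes pass both filters and have 1 row each. Of the 40 single values under the 4 others, 0 moved by 0.1 or more on the log2 scale. The sign changed for 1, cebpg, from -0.01 to 0.03 when libraries were scaled to their totals less the 50 most abundant symbols. That scaling placed the median of all genes at 0.02. The scalings multiply every mutant value by a constant near 1, so they could not have moved any of the 10 by 0.1. Under the pseudocounts the widest move was that of aldh18a1, from -0.29 to -0.20 with 5 FPKM. No list median moved by 0.1 or more under these alternatives, or when unmatched list genes were added by Ensembl ID. That last alternative was chosen after seeing the data. Several list medians lay near 0 and changed sign, so their direction depends on the processing. Without the 50 most abundant symbols in the totals, the eIF2 median went from -0.028 to 0.004 and the serine median from -0.018 to 0.014. There the proline median went from -0.001 to 0.030 and the endoplasmic reticulum median from -0.029 to 0.002. With the highest row of a symbol, the transporter median went from -0.043 to 0.021. The counts over all genes, 548 higher and 596 lower, were 927 and 1049 with a pseudocount of 0.1 FPKM, 91 and 124 with one of 5 FPKM, 156 and 197 with a mean of at least 5 FPKM, and 1523 and 1767 at 1.5-fold. No paired analysis was possible because each genotype has a single library. Without replicates or counts, the error of a single value is unknown.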

Other observations

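Some pathway genes that carry other names in the deposited table were matched afterwards by Ensembl ID through a current gene name table, a choice made after the data were seen. The glycine cleavage gene gldc, which acts next to shmt2 in glycine use, stood at 30.89 FPKM in wild type and 23.81 FPKM in the mutant, 1.30-fold lower. The neutral amino acid transporter gene matched to slc7a8 was nearly level at 56.21 and 54.06 FPKM. The folding enzyme gene pdia6 stood at 16.74 and 20.82 FPKM. The cystine transporter gene slc7a11, an ATF4 target in mammals that supplies glutathione synthesis, summed over 2 rows to 0 FPKM in wild type and 0.588 FPKM in the mutant, too low to compare.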
